A study of Homo sapiens with 12 samples.

Results

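Krüppel-like factors (KLFs) are DNA-binding proteins whose zinc fingers recognise GC-rich and CACCC sequences, and which switch genes on or off according to the cofactors that the rest of the protein recruits. The genes described here are the 10 KLF genes KLF2, KLF3, KLF4, KLF5, KLF6, KLF7, KLF9, KLF10, KLF11 and KLF13. They were chosen with earlier results of these data known. Each was found among the 60649 genes of the deposited count files by matching its identifier to its symbol, whatever its counts. All 10 passed the filter on low counts, which left 16683 genes to be tested.

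The RNA came from spheroids (floating clusters) of SBC3, an established human small cell lung cancer cell line, with 3 libraries in each of 4 groups. The control libraries were labelled Control, the teriflunomide libraries received teriflunomide alone, the lurbinectedin libraries received lurbinectedin alone, and the combination libraries received both drugs. Teriflunomide inhibits dihydroorotate dehydrogenase, an enzyme of pyrimidine synthesis. Lurbinectedin is an alkylating drug that binds in the minor groove of DNA and stalls transcribing RNA polymerase II. All groups share the single cell line; the labels give no dose, no exposure time and no statement that the libraries of a group came from separate cultures, so p-values measure the spread between these libraries, which may be technical.

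Total counts were between 23206414 and 33222162 per library. The mitochondrial genome took 6.26% to 7.17% of counts in the control libraries, 8.42% and 8.43% in teriflunomide libraries 1 and 2 but 22.6% in library 3, 13.8% to 17.0% with lurbinectedin, and 14.6%, 24.9% and 13.1% in combination libraries 1, 2 and 3. Levels are given as CPM, counts scaled to a fixed library total. Teriflunomide library 3 also stood apart in its correlation of log CPM with the other libraries of its group, 0.9772 and 0.9788, against 0.9951 between those other libraries. Of 10 lineage markers of small cell lung cancer, 2 (INSM1 and UCHL1) had no count in any library, NEUROD1 was at 4.03 CPM in control libraries, and YAP1, a marker of the variant without neuroendocrine features, was at 246 CPM. The summed level of the 10 lineage markers was 257 to 281 CPM in control libraries and 94.5 to 104 CPM with lurbinectedin. Most of that sum was YAP1, at 64.9 CPM with lurbinectedin. Of the 4 lineage markers tested, YAP1 and NEUROD1 (1.62 CPM) were lower with lurbinectedin than in control, and SYP and CHGA higher. SYP rose from 16.8 to 30.9 CPM (log2 0.88, edgeR adjusted p = 4.21e-06). CHGA rose from 0.0633 to 0.442 CPM (log2 2.74, edgeR adjusted p = 0.00108), with 6 summed counts in control libraries. CHGA passed the filter on low counts only through the groups given lurbinectedin, so its call is not independent of the filter. Markers of endothelial cells, in which KLF2 and KLF4 are well known, summed to at most 0.579 CPM in any library, and leukocyte markers to at most 0.447 CPM. Of the fibroblast markers, COL1A2 was at 270 CPM in control libraries and 99.9 CPM with lurbinectedin. COL3A1 was at only 1.07 and 0.531 CPM in these groups, and LUM had no count in any library.

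The family falls into classes by cofactor. KLF2, KLF4, KLF5, KLF6 and KLF7 mostly activate their targets through histone acetyltransferases such as p300 and CBP. KLF3, like its relatives KLF8 and KLF12, represses by binding the C-terminal binding proteins CtBP1 and CtBP2. KLF9, KLF10, KLF11 and KLF13 carry a short helix that binds SIN3A and brings histone deacetylases to a promoter. Many members are early-response genes whose short-lived transcripts follow growth factors, hormones, TGF-beta or injury.

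KLF and SP proteins bind GC boxes, which some KLF promoters also hold. The 250 bases before the start site are shown for the 3 members that rose most with the combination (KLF4, KLF5 and KLF2) and for the member that fell most (KLF13). Sequences are from RefSeq, build GRCh38.p14, on the strand of the gene, and each window is free of annotated exons. The KLF4 window lies inside the span over which that gene was counted (chr9:107484852-107490482), so its start is also an inner one. Capitals mark the GC box GGGCGG, MEF2 sites and the CACCC box. All were searched on both strands.
KLF2 promoter, chr19:16324576-16324825, plus strand: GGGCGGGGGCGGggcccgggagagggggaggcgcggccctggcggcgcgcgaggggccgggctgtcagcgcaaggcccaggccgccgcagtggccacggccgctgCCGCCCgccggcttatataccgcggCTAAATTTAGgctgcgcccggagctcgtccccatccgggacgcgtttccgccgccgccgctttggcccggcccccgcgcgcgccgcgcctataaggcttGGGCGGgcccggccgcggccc
KLF4 promoter, chr9:107489770-107490019, minus strand: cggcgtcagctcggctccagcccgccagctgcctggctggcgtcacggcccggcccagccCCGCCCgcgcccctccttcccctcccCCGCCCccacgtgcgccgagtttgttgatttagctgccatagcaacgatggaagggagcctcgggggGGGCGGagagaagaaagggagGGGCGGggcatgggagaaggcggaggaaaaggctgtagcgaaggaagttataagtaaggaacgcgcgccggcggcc
KLF5 promoter, inner start, chr13:73058755-73059004, plus strand: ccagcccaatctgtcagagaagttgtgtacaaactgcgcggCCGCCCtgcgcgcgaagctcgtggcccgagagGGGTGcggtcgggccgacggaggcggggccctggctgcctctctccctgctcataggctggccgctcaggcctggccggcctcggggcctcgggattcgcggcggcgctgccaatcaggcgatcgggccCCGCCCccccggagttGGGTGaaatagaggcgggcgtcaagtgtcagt
KLF13 promoter, chr15:31326585-31326834, plus strand: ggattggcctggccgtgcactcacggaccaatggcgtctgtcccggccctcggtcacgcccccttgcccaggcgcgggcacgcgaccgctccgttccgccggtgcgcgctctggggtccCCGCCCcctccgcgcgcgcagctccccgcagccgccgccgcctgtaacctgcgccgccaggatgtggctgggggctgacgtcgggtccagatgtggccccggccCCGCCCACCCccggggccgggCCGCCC

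G and C made up 80.0% of the KLF2 window, 69.2% of KLF4, 70.8% of KLF5 at its inner start and 78.8% of KLF13. The KLF2 window held 4 GC boxes and 1 MEF2 site. The KLF4 window held 4 GC boxes, KLF5 held 2 GC boxes and 2 CACCC boxes, and KLF13 held 3 GC boxes and 1 CACCC box, which overlaps a GC box. Among all 35116 windows of this length in the table, 42.6% had a GC box, 54.7% a CACCC box and 2.80% a MEF2 site. These matches describe the letters in the windows and are no evidence of binding. Windows of other members and starts differed: the outer KLF5 start (chr13:73054726-73054975, 40.8% G and C) held no GC box and 1 CACCC box, and the KLF9 window (32.4% G and C) held neither. Gene counts do not tell which start of KLF4 or KLF5 was used.

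The most members were called in the groups given lurbinectedin. Against control, KLF2, KLF4, KLF5, KLF6, KLF10 and KLF11 rose with lurbinectedin alone and KLF3, KLF7, KLF9 and KLF13 fell, so that all 10 were called at an edgeR adjusted p under 0.05. The background was high: 71.6% of all genes tested were called, 36.0% higher and 35.7% lower. KLF4 passed the filter on low counts only through the groups given lurbinectedin, where it was high. With teriflunomide alone KLF5 and KLF2 rose, 2 of 10, where 6.01% of all genes tested were called, 3.88% higher and 2.13% lower; DESeq2 called 5 of 10, where it called 12.1% of all genes. With the combination 6 members rose and 3 fell, where 68.4% of all genes were called, 34.1% higher and 34.4% lower. Levels are shares of the RNA in a library, so fewer cells of a type and less RNA per cell cannot be told apart in these bulk samples. The plot of levels by library shows each member's values.

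**Figure D1:**
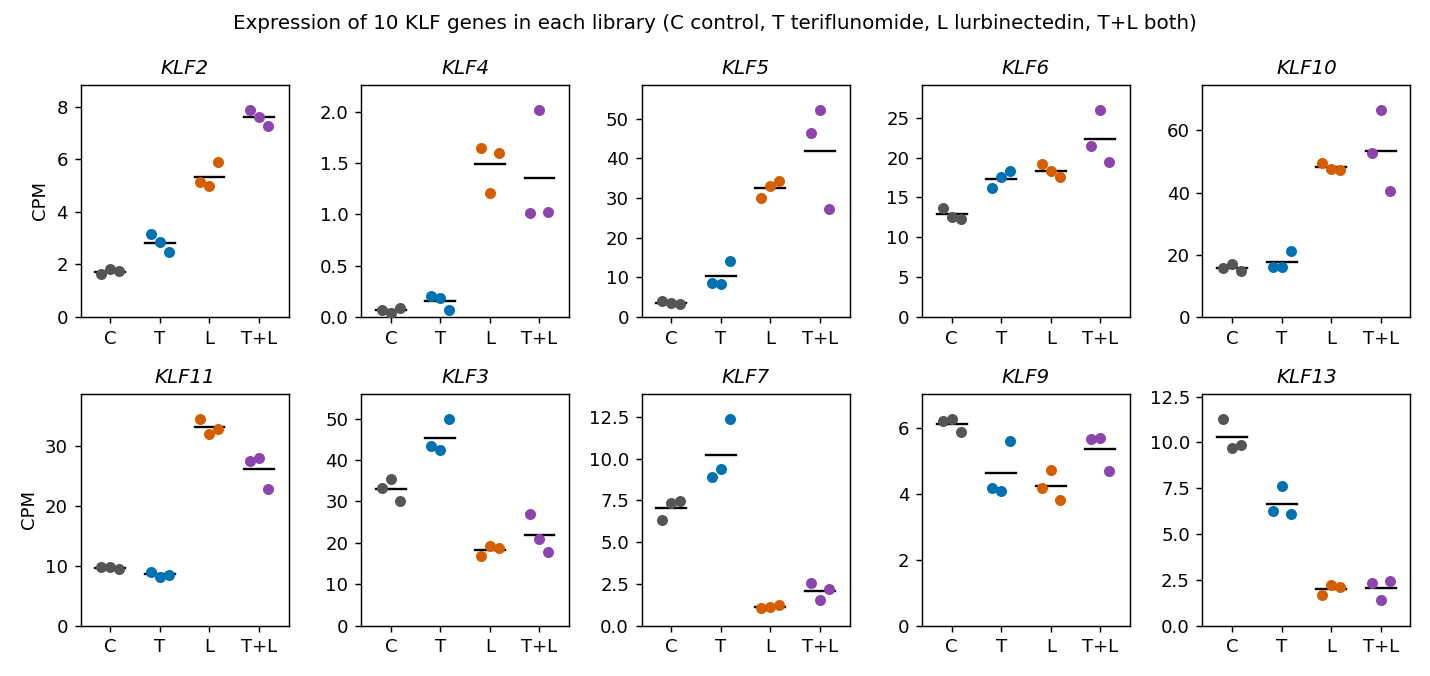
Normalised level (CPM at the TMM effective library size, linear axis from 0) of the 10 KLF genes in each of the 12 libraries; points are libraries, and horizontal lines are group means. KLF5 was at 3.32 to 3.95 CPM in control libraries and 27.2 to 52.3 CPM with the combination, while KLF13 went from 9.69 to 11.3 CPM to 1.39 to 2.42 CPM.

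Among the activators, KLF5 changed with each treatment. KLF5 drives proliferation in epithelial crypts and promotes the growth of many carcinomas. Its control libraries stood at 3.95, 3.54 and 3.32 CPM, the teriflunomide libraries at 8.59, 8.32 and 14.1 CPM, the lurbinectedin libraries at 30.1, 33.0 and 34.3 CPM, and the combination libraries at 46.4, 52.3 and 27.2 CPM. Every treated library was above every control library, teriflunomide library 3 was the highest of its group, and the lurbinectedin and combination ranges overlapped. The log2 fold change against control was 1.52 (SE 0.25, edgeR adjusted p = 0.00449) with teriflunomide. It was 3.17 (SE 0.26, edgeR adjusted p = 7.95e-08) under lurbinectedin and 3.54 (SE 0.26, edgeR adjusted p = 3.7e-08) under both drugs. Without teriflunomide library 3 the teriflunomide value was 1.23 (edgeR adjusted p = 0.00396).

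KLF2, which keeps endothelial cells and T cells quiescent, was called with each treatment. It measured 1.64, 1.81 and 1.73 CPM in control libraries, 3.14, 2.84 and 2.49 CPM with teriflunomide, 5.14, 5.0 and 5.89 CPM with lurbinectedin, and 7.89, 7.63 and 7.27 CPM with the combination. None of the 4 groups overlapped, and the order was control, teriflunomide, lurbinectedin, combination. Log2 fold changes against control were 0.71 (SE 0.15, edgeR adjusted p = 0.0187) with teriflunomide, 1.63 (SE 0.15) with lurbinectedin and 2.13 (SE 0.15) with both drugs, the last 2 at adjusted p = 3.15e-07 and 2.22e-08. Among other settings, the call with teriflunomide was lost when any 1 control library was left out (adjusted p 0.0703 to 0.0969) when only the groups compared were fitted (adjusted p = 0.0759) and with scaling by library size alone (adjusted p = 0.127).

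KLF4, a reprogramming factor and a regulator of epithelial differentiation that arrests the cell cycle, gave the fewest reads. It had 6 counts over the 3 control libraries, 15 with teriflunomide, 109 with lurbinectedin and 108 under both drugs. KLF4 passed the filter on low counts only through the groups given lurbinectedin. Its calls as higher in those groups are therefore not independent of the filter. The libraries stood at 0.067, 0.0334 and 0.0896 CPM in control, 0.205, 0.180 and 0.0681 CPM with teriflunomide, 1.65, 1.21 and 1.60 CPM with lurbinectedin, and 1.01, 2.02 and 1.02 CPM with the combination. Both groups with lurbinectedin lay above all other libraries, whereas the teriflunomide range reached into the control range. The depth-adjusted ratio of summed counts was 23.0 (95% exact interval 10.2 to 64.0) for lurbinectedin over control and 2.41 (0.882 to 7.57) for teriflunomide over control; intervals cover counting error alone, and reads that carry no molecular identifier need not be independent. The fitted log2 fold changes were 4.44 (SE 0.48, edgeR adjusted p = 1.48e-06) with lurbinectedin, 4.28 (SE 0.48, edgeR adjusted p = 2.71e-06) with both drugs and 1.21 (SE 0.68, edgeR adjusted p = 0.281) with teriflunomide.

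KLF6 responds to tissue injury and can act as a tumour suppressor. It was at 13.7, 12.6 and 12.3 CPM in control libraries, 16.2, 17.6 and 18.3 CPM with teriflunomide, 19.2, 18.3 and 17.6 CPM with lurbinectedin, and 21.5, 26 and 19.4 CPM with the combination. No treated library fell within the control range. The rise was the smallest of the 6, at 0.51 (log2, SE 0.13, edgeR adjusted p = 0.00242) with lurbinectedin and 0.79 (SE 0.13, edgeR adjusted p = 7.37e-05) with the combination. With teriflunomide the value was 0.43 (SE 0.13) and missed the threshold, edgeR adjusted p = 0.0586. Scaling by library size alone, which moved the median over all genes from 0.05 to -0.18 (log2) in lurbinectedin against control, brought KLF6 to 0.27 (edgeR adjusted p = 0.0752).

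KLF7, the closest relative of KLF6 and a factor of neuron outgrowth, went the other way with lurbinectedin. It stood at 6.33, 7.35 and 7.47 CPM in control libraries, 8.88, 9.37 and 12.4 CPM with teriflunomide, 1.07, 1.09 and 1.24 CPM with lurbinectedin, and 2.53, 1.56 and 2.20 CPM with the combination. Libraries with lurbinectedin were the lowest, combination libraries lay between them and control, and teriflunomide libraries were above control. The log2 fold change was -2.63 (SE 0.21, edgeR adjusted p = 7.03e-08) with lurbinectedin and -1.74 (SE 0.19, edgeR adjusted p = 2.24e-06) with the combination. With teriflunomide the log2 value was 0.53 (SE 0.17, edgeR adjusted p = 0.0811).

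KLF3, a CtBP-binding repressor with roles in red blood cells and fat cells, had the highest level per length of the 10 in control libraries. Values were 33.3, 35.4 and 30.2 CPM in control, 43.4, 42.3 and 50.0 CPM with teriflunomide, 16.8, 19.2 and 18.8 CPM with lurbinectedin, and 27, 21.0 and 17.7 CPM with the combination. The teriflunomide libraries were above control and the libraries with lurbinectedin below it, without overlap. KLF3 fell by 0.85 (log2, SE 0.15, edgeR adjusted p = 0.000145) with lurbinectedin and by 0.59 (SE 0.15, edgeR adjusted p = 0.00273) with the combination. The teriflunomide value was 0.45 (log2, SE 0.15, edgeR adjusted p = 0.0786).

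The SIN3A-binding members split into a rising and a falling pair with lurbinectedin. KLF10 and KLF11, the TGF-beta-inducible early genes that restrain growth, rose. KLF10 was at 15.7, 16.9 and 14.8 CPM in control libraries, 16.1, 15.9 and 21.2 CPM with teriflunomide, 49.5, 47.6 and 47.1 CPM with lurbinectedin, and 52.7, 66.6 and 40.4 CPM with the combination. KLF11 was at 9.79, 9.73 and 9.50 CPM in control, 9.03, 8.20 and 8.45 CPM with teriflunomide, 34.6, 32.1 and 32.9 CPM with lurbinectedin, and 27.5, 28.0 and 22.9 CPM with the combination. For both genes every library with lurbinectedin lay above every library without it, and KLF10 in teriflunomide libraries overlapped control. Log2 fold changes with lurbinectedin were 1.61 (SE 0.17, edgeR adjusted p = 1.21e-06) for KLF10 and 1.78 (SE 0.11, edgeR adjusted p = 7.88e-09) for KLF11, and with the combination 1.75 (SE 0.17) and 1.43 (SE 0.11). With teriflunomide they were 0.17 (SE 0.17, edgeR adjusted p = 0.556) and -0.18 (SE 0.12, edgeR adjusted p = 0.359).

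KLF9 and KLF13, which are close in sequence, fell. KLF9 is induced by glucocorticoid and thyroid hormone, and KLF13 is best known for its control of the chemokine CCL5 in T cells. KLF13 was at 11.3, 9.69 and 9.86 CPM in control libraries, 6.27, 7.61 and 6.10 CPM with teriflunomide, 1.65, 2.23 and 2.11 CPM with lurbinectedin, and 2.32, 1.39 and 2.42 CPM with the combination. All treated libraries were below control, and those with lurbinectedin were lowest. KLF13 fell by 2.35 (log2, SE 0.20, edgeR adjusted p = 1.35e-07) with lurbinectedin and by 2.31 (SE 0.20, edgeR adjusted p = 1.71e-07) with the combination. With teriflunomide the value was -0.63 (SE 0.18) and missed the threshold, edgeR adjusted p = 0.0538.

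KLF9 measured 6.23, 6.29 and 5.88 CPM in control libraries, 4.19, 4.10 and 5.62 CPM with teriflunomide, 4.17, 4.73 and 3.82 CPM with lurbinectedin, and 5.68, 5.69 and 4.69 CPM with the combination. Each treated library was below the lowest control library, and within the teriflunomide group library 3 was nearest to it. KLF9 fell by 0.53 (log2, SE 0.16, edgeR adjusted p = 0.00875) with lurbinectedin. Its values with teriflunomide (-0.41, SE 0.16, edgeR adjusted p = 0.135) and the combination (-0.20, SE 0.16, edgeR adjusted p = 0.279) missed the threshold. Without teriflunomide library 3 KLF9 was called with teriflunomide at -0.57 (edgeR adjusted p = 0.0229), and KLF13 was called at -0.57 (edgeR adjusted p = 0.0408). That fit called 1555 genes with teriflunomide.

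**Figure D2:**
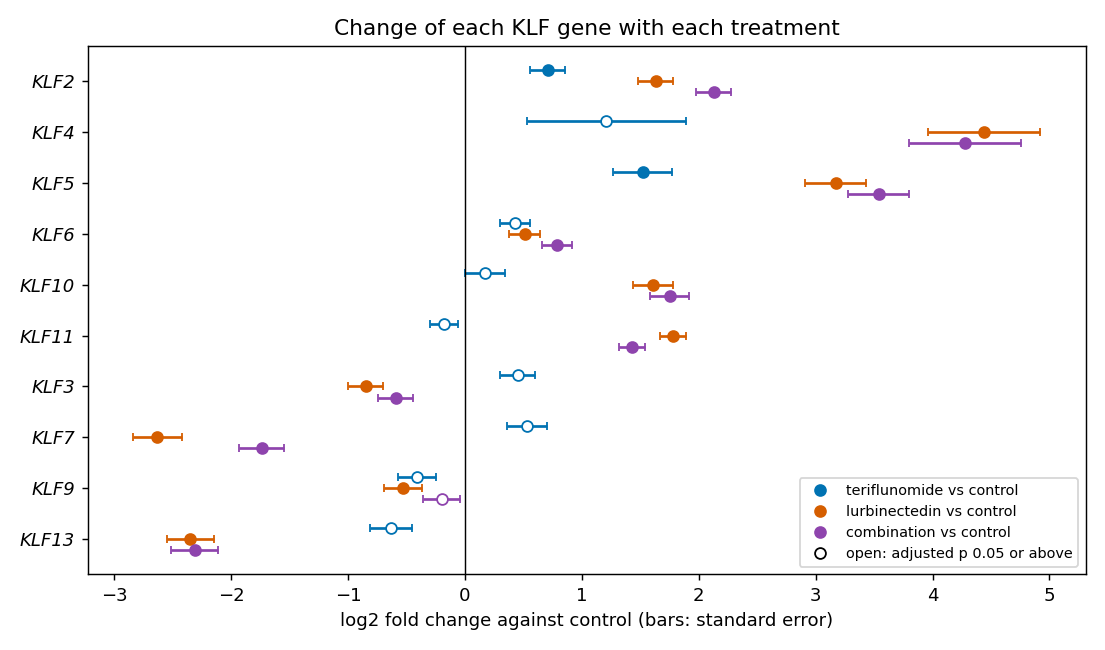
Log2 fold change of the 10 KLF genes in each treated group against control from the edgeR fit; points are estimates, bars are ± 1 SE, and filled points were called at an adjusted p under 0.05. KLF4 and KLF5 lie furthest above 0 with lurbinectedin at 4.44 and 3.17, and KLF7 and KLF13 furthest below at -2.63 and -2.35.

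Counting ranges that do not overlap, 8 of 10 members were separated between teriflunomide and control, where 36.8% of all genes tested were. All 10 were separated between lurbinectedin and control (83.2% of all genes) and between the combination and control (77.2%). Median log2 fold changes of the members were 0.44 with teriflunomide, 1.06 with lurbinectedin and 1.11 under both drugs, against 0.03, 0.05 and 0.04 over all genes. These comparisons share their control libraries, and the members were chosen with earlier results of these data known. In 7 of 10 members the unadjusted p was under 0.05 with teriflunomide, where 24.8% of all genes were.

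Adding lurbinectedin to teriflunomide moved 6 members up and 3 down, where 70.9% of all genes tested were called, 35.2% higher and 35.8% lower. KLF4 (log2 fold change 3.08, SE 0.41), KLF5 (2.02, SE 0.24), KLF11 (1.61, SE 0.11), KLF10 (1.59, SE 0.17) and KLF2 (1.42, SE 0.14) rose, at edgeR adjusted p between 2.55e-08 and 1.24e-05. KLF6 rose by 0.36 (SE 0.12, edgeR adjusted p = 0.0193), a call lost in 5 of 15 alternative analyses. On the log2 scale KLF7 fell by 2.27, KLF13 fell by 1.69 and KLF3 fell by 1.04. KLF9 was at 0.21 (edgeR adjusted p = 0.257).

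Adding teriflunomide to lurbinectedin called none of the 10 and no gene in the whole test (0 called of 16683, 2599 at an unadjusted p under 0.05, which is 15.6%). DESeq2 called 558 genes, 4.60% of those it tested, among them KLF2, KLF7 and KLF11. Ranges did not overlap for 4 of 10 members, where 23.7% of all genes were separated: KLF2, KLF6 and KLF7 were higher and KLF11 lower with the combination than with lurbinectedin alone. The estimates were 0.51 (log2, SE 0.14, edgeR adjusted p = 0.151) for KLF2, 0.89 (SE 0.23, edgeR adjusted p = 0.151) for KLF7, 0.28 (SE 0.13, edgeR adjusted p = 0.305) for KLF6 and -0.35 (SE 0.11, edgeR adjusted p = 0.19) for KLF11. Without combination library 2, KLF7 was called at 1.06 (edgeR adjusted p = 0.0388), 1 of 259 genes called in that fit.

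The interaction asks whether teriflunomide acted differently on top of lurbinectedin than by itself. None of the 10 was called, where 0.258% of all genes were (43 genes by edgeR; 10.3% had an unadjusted p under 0.05, 3 of the 10 members among them, and DESeq2 called 226 genes, 1.52% of those it tested). The KLF5 value was -1.15 (SE 0.34, edgeR adjusted p = 0.241): teriflunomide added 1.52 on the log2 scale alone and 0.37 on top of lurbinectedin. KLF9 was at 0.74 (SE 0.23, edgeR adjusted p = 0.262) and KLF13 at 0.67 (SE 0.28, edgeR adjusted p = 0.427). Without teriflunomide library 3 the KLF9 value was 0.91 (edgeR adjusted p = 0.0225), in a fit that called 616 genes. Without that library and combination library 2, a setting chosen after seeing the data, 1839 genes were called, 3 members among them. These were KLF5 (-1.05), KLF9 (0.86) and KLF13 (0.81), at edgeR adjusted p 0.0233, 0.00926 and 0.028. The share of mitochondrial counts was highest in those 2 libraries, and its part in these values was not tested.

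Divided by exonic length, levels can be compared between members. In control libraries KLF3 led at 4.87 ± 0.387 CPM per kb (SD, n = 3), above KLF10 at 4.13 ± 0.276, and KLF11 (2.11 ± 0.0329) and KLF6 (2.10 ± 0.121) followed with overlapping ranges. KLF9 (1.18) overlapped KLF13 (1.09), which overlapped KLF5 (0.980). KLF7 (0.761) and KLF2 (0.612) came next, and KLF4 was last at 0.0173 CPM per kb. With lurbinectedin no neighbours overlapped: KLF10 led at 12.6 ± 0.328, then KLF5 at 8.83 ± 0.577 and KLF11 at 7.23 ± 0.279, with KLF3 at rank 5 with 2.69 and KLF7 last at 0.122 CPM per kb. With teriflunomide KLF3 (6.68) and KLF10 (4.64) were at the top, and KLF5 (2.81 ± 0.887) lay beside KLF6 (2.83 ± 0.171), whose ranges overlapped. In the combination KLF10 (13.9 ± 3.44) and KLF5 (11.4 ± 3.56) overlapped at the top.

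The 10 genes together stood at 17.8 ± 0.807 CPM per kb in control libraries. The sum was 22.6 ± 2.58 with teriflunomide, 37.8 ± 0.253 with lurbinectedin and 42.4 ± 8.58 for both drugs (SD, n = 3). Each treated group was above all control libraries, at an exact 2-sided permutation p = 0.1, the smallest that 3 against 3 libraries allow. KLF5 made up 5.49% of the control sum and 23.4% of the lurbinectedin sum, while KLF3 went from 27.3% to 7.13%. KLF10 went from 23.1% to 33.3% and KLF11 from 11.8% to 19.2%. The ratio of KLF5 to KLF3 per length was 0.201 ± 0.0171 in control, 0.415 ± 0.09 with teriflunomide, 3.28 ± 0.0949 with lurbinectedin and 3.52 ± 0.927 under both drugs.

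**Figure D3:**
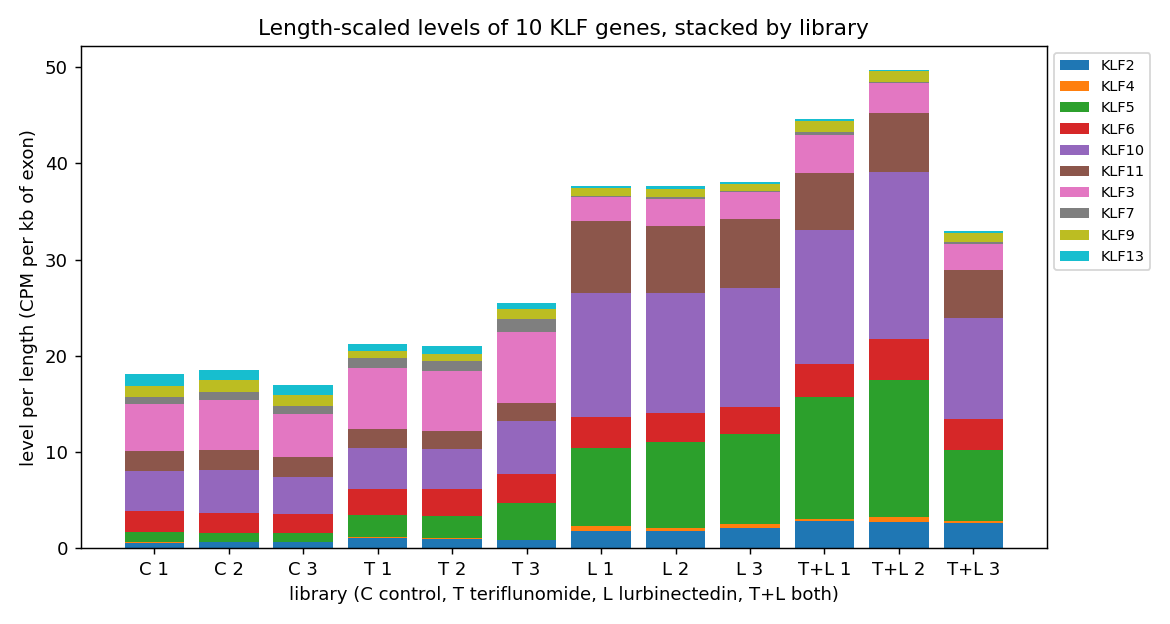
Summed level of the 10 KLF genes in each library (CPM per kb of exon, linear axis from 0), stacked by gene. The stack is 16.9 to 18.5 in control libraries and 33.0 to 49.7 in combination libraries, and the part from KLF3 shrinks as those from KLF5 and KLF10 grow.

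Close relatives moved apart. The ratio of KLF6 to KLF7 per length was 2.78 ± 0.426 in control and 2.61 ± 0.328 with teriflunomide. It was 24.6 ± 2.91 with lurbinectedin and 17.1 ± 6.98 for both drugs. The ratio of KLF9 to KLF13 was 1.09 ± 0.0874 in control and 3.91 ± 0.654 with lurbinectedin. KLF10 and KLF11 kept closer to each other, at 1.96 ± 0.112 in control, 1.74 ± 0.0357 with lurbinectedin and 2.43 ± 0.388 with the combination, and the last 2 ranges did not overlap.

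The members that rose with lurbinectedin were shorter genes than those that fell. The 6 members that rose span at most 22.6 kb of genome, from 3.9 kb (build GRCh38) for KLF2 (chr19:16324826-16328685), and the 4 that fell span at least 30.1 kb, up to 108.8 kb for KLF13 (chr15:31326835-31435665). KLF4 covers 5.6 kb (chr9:107484852-107490482), KLF10 6.9 kb, and KLF6 9.3 kb (chr10:3775996-3785281). KLF9 covers 30.1 kb (chr9:70384604-70414657) and KLF3 37.3 kb (chr4:38664197-38701517). KLF7 covers 93.1 kb (chr2:207074137-207167267), KLF5 22.6 kb (chr13:73054976-73077541) and KLF11 12 kb (chr2:10042849-10054836). Across members the Spearman correlation of span with the log2 fold change was -0.758 (n = 10), and across all 16651 nuclear genes tested it was -0.572; genes are not independent replicates, and each value comes from the same libraries. With genes sorted by span into 5 bins, the median log2 fold change ran from 0.69 in the shortest bin (up to 5.3 kb) to -1.86 in the longest (over 82.9 kb). KLF4 at 4.44 and KLF5 at 3.17 stood at percentiles 99.0 and 97.6 of all genes tested, and KLF4 was tested only because of its counts with lurbinectedin.

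**Figure D4:**
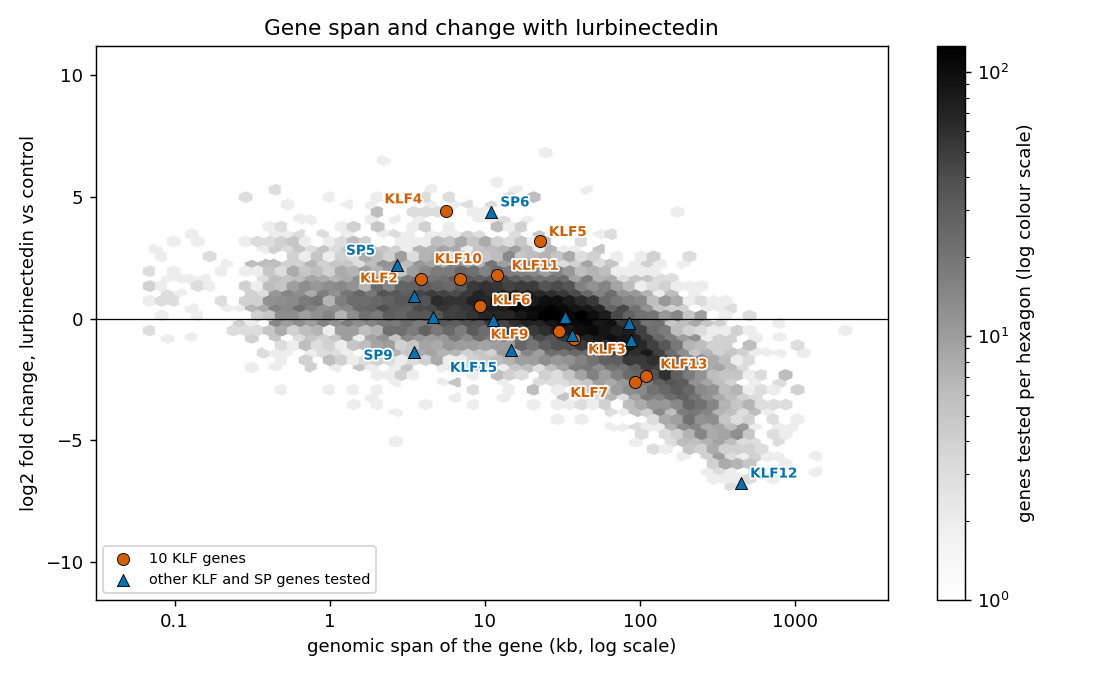
Genomic span (kb, log axis) against the log2 fold change of lurbinectedin over control; grey hexagons count the 16651 nuclear genes tested (log colour scale), circles are the 10 KLF genes and triangles the other KLF and SP genes tested. KLF12 is the longest and lowest of the family at -6.76, while SP6 at 4.39 lies near KLF4.

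Of the 17 other KLF and SP genes, 12 were tested; with lurbinectedin 3 rose and 5 fell, with a median log2 fold change of -0.14, where 71.6% of all genes were called. KLF12, a CtBP-binding relative of KLF3 that spans 447.8 kb, went from 19.6 ± 1.02 to 0.176 ± 0.0526 CPM (SD, n = 3, log2 -6.76, SE 0.27, edgeR adjusted p = 1.47e-10). It had 13 summed counts with lurbinectedin. KLF12 passed the filter on low counts only through the groups without that drug, so its call is not independent of the filter. SP6, a factor of tooth and skin epithelium, went from 0.845 ± 0.264 to 17.7 ± 1.80 CPM (log2 4.39, SE 0.22, edgeR adjusted p = 8.45e-10). KLF15, a metabolic regulator of 14.8 kb, fell by 1.3 (SE 0.15, edgeR adjusted p = 3.4e-06). With teriflunomide 1 of the 12 was called, where 6.01% of all genes tested were. It was KLF14, at 0.75 (SE 0.14, edgeR adjusted p = 0.00883), from 8.10 ± 0.313 to 13.6 ± 2.62 CPM.

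Of 11 cofactors tested, 1 rose and 6 fell with lurbinectedin, with a median of -0.50, where 36.0% of all genes rose and 35.7% fell. CTBP2, the partner of KLF3, went from 88.5 ± 0.570 to 17.3 ± 1.72 CPM (log2 -2.36, SE 0.14, edgeR adjusted p = 2.82e-09). CREBBP, which encodes the acetyltransferase CBP, fell by 1.71 (SE 0.12) and SIN3A, the partner of KLF9, KLF10, KLF11 and KLF13, by 1.15 (SE 0.14). SIN3B was the cofactor that rose, by 0.76 (SE 0.15, edgeR adjusted p = 0.000324), while CTBP1, HDAC2, HDAC3 and SAP30 were not called with lurbinectedin. With teriflunomide 1 of the 11 cofactors was called, where 6.01% of all genes tested were. It was KAT2B, the acetyltransferase PCAF, at 1.02 (SE 0.20, edgeR adjusted p = 0.0123), and it fell by 1.51 with lurbinectedin.

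Upstream of the family, 11 signalling genes and regulators were tested. With lurbinectedin 3 rose and 6 fell (median -0.54), where 71.6% of all genes were called. By edgeR, 0 were called with teriflunomide, where 6.01% of all genes were, and 3 had an unadjusted p under 0.05. TGFBR2, a receptor through which KLF10 and KLF11 are induced, went from 182 ± 3.15 to 41.5 ± 1.87 CPM (log2 -2.14, SE 0.10, edgeR adjusted p = 5.6e-10). TGFBR1, the other TGF-beta receptor gene listed, rose by 0.69 (log2, SE 0.13, edgeR adjusted p = 0.000276) and was picked after its value was seen. MAP2K5 and MEF2A, which lie on the kinase pathway that induces KLF2 and KLF4 in endothelium, fell by 4.47 (SE 0.26) and 1.48 (SE 0.18). On the same pathway MAPK7, the kinase below MAP2K5, rose by 0.74 (edgeR adjusted p = 0.000145) and MEF2D by 0.49 (edgeR adjusted p = 0.0016); both were picked after their values were seen. Among 7 ubiquitin ligases that act on KLF proteins, 2 rose and 5 fell with lurbinectedin (median -1.41), where 71.6% of all genes were called, 35.7% lower. BTRC was at -4.35, FBXW11 at -1.84 and ITCH at -1.69, while FBXW7, also picked after its value was seen, rose by 1.90 (edgeR adjusted p = 7.19e-08).

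Downstream, 15 of 19 reported KLF targets were tested, and 10 rose and 3 fell with lurbinectedin (median 0.52), where 71.6% of all genes were called, 36.0% higher. The list does not separate targets that KLFs raise from those they lower, so its counts give no direction of KLF action. ATF3, a stress-induced factor, went from 2.82 ± 0.229 to 161 ± 13.8 CPM (log2 5.83, SE 0.15, edgeR adjusted p = 8.38e-12). CDKN1A, the cell cycle inhibitor p21 and also a p53 target, went from 22.8 ± 1.61 to 620 ± 42.2 CPM (log2 4.76, SE 0.22, edgeR adjusted p = 3.96e-10). MAOB, a monoamine oxidase gene, fell by 5.24 (SE 0.50, edgeR adjusted p = 4.8e-07), from 159 summed counts in control libraries to 3 with lurbinectedin. MAOB passed the filter on low counts only through the groups without lurbinectedin, so its call as lower is not independent of the filter. With teriflunomide 3 of the 15 targets rose, where 6.01% of all genes tested were called, 3.88% higher. Among them were ATF3 (0.79, SE 0.15, edgeR adjusted p = 0.00832) and CDKN1A (0.94, SE 0.19, edgeR adjusted p = 0.0141). Teriflunomide library 3 held CDKN1A at 26.7 CPM, against 52.1 and 52.2 CPM in the other libraries of that group. With the combination 10 targets rose and 3 fell, and the same counts were 3 and 4 for the other KLF and SP genes, 1 and 7 for the cofactors, 3 and 6 for the upstream genes, and 2 and 5 for the ligases, where 68.4% of all genes were called.

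**Figure D5:**
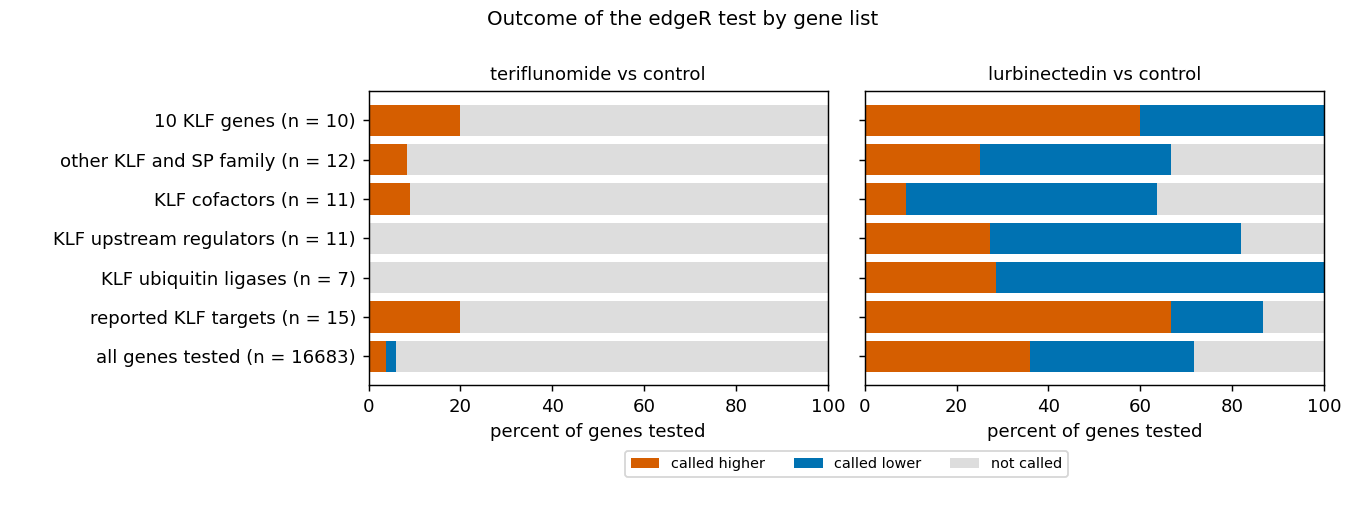
Share of the genes tested in each list (percent, axis from 0 to 100) that were called higher, called lower or not called by edgeR, for teriflunomide and for lurbinectedin against control. All 10 KLF genes are called with lurbinectedin, against 71.6% of all genes tested, and 2 of 10 with teriflunomide, against 6.01%.

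For the 3 members with the widest range between groups, the genes most alike over the 12 libraries were found by the Pearson correlation of log2 CPM. KLF5 was most like MDM2 (0.9931) and PPM1D (0.9903), and 283 of 10435 genes exceeded 0.95. KLF4 was most like CSF1 (0.9935) and ZNF425 (0.9925), with 855 of 10436 genes above 0.95. KLF7 was most like DNMBP (0.9976) and PLS3 (0.9966), with 2011 above 0.95. The libraries fall into groups with and without lurbinectedin, which all these genes share.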

How the data were processed

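The authors deposited 1 table of raw read counts for each library. Per the labels, the RNeasy Plus Mini kit was used for RNA and the KAPA mRNA HyperPrep kit for libraries. Per the submitters' processing notes, fastp 0.23.2, STAR 2.7.9 and featureCounts of Subread were used with build hg38; strand and multi-mapping settings are not given in the sources used here. All 37318 gene identifiers with the same version in GENCODE 29 had identical start and end positions.

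From these counts, edgeR 4.0.16 in R 4.3.3 kept genes with filterByExpr and scaled libraries by TMM. It fitted 1 mean per group to all 12 libraries with the robust quasi-likelihood test, and standard errors came from the F statistic. P-values were adjusted by Benjamini-Hochberg over all 16683 genes tested within each of 6 contrasts and called under 0.05; the biological coefficient of variation was 14.5%. CPM use effective library sizes and are divided by exonic length where given per kb.

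All 10 members were named, with up to 3 genes per list by the smallest adjusted p with lurbinectedin and up to 2 with teriflunomide. The members, lists and cell type markers were chosen with earlier results of these data known. Epithelial markers, mostly KRT8, summed to 236 to 252 CPM in control and 400 to 433 CPM with lurbinectedin. KRT18 was at 0.149 and 0.146 CPM in these groups, and EPCAM had 1 count in control libraries and none with lurbinectedin. No gene that overlaps a member passed the filter, and the 8 pseudogenes of members had at most 6 summed counts in a group. Alternatives varied the scaling, filter, tool, block, groups fitted and libraries; DESeq2 1.42.0 was the other tool.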

Additional observations from a re-analysis of the deposited data

Results flagged for a closer look

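For ATF3, 1 of 15 reported KLF targets tested, the test of the interaction between the drugs passed the threshold. It was the only target to do so, where 0.258% of all genes tested did. The interaction was -1.01 (log2, SE 0.19, edgeR adjusted p = 0.0475). Teriflunomide against control was 0.79 on the log2 scale, with libraries at 5.51, 4.58 and 4.50 CPM over a control mean of 2.82 CPM, while the mean was 161 ± 13.8 CPM with lurbinectedin and 138 ± 19.2 CPM with the combination (SD, n = 3).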

How the results depend on the processing

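Calls of members against control with lurbinectedin (9 to 10 over all alternatives) or the combination (9 to 10), and of the combination against teriflunomide (8 to 10), held within 1.5 times. The other 3 contrasts moved. With teriflunomide, 2 members were called; this became 1 with library size as the only scaling, 1 with the replicate block, 1 with only the groups compared, 5 with DESeq2, 6 with teriflunomide library 3 and combination library 2 both left out (chosen after seeing the data), and 1 to 4 when leaving out each library. KLF5 was called in all 15 alternatives and KLF2 in 9, not with the replicate block (adjusted p = 0.0537). The combination against lurbinectedin gave 0, and 1 without the expression filter, 3 with DESeq2, 3 with both libraries left out and 0 to 1 leaving out each. The interaction gave 0, and 1 without the filter (KLF5), 3 with both left out and 0 to 1 leaving out each.

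Estimates near 0 changed sign. In the combination against lurbinectedin KLF10 was -0.04 with both libraries left out, and leaving out single libraries gave ranges of -0.04 to 0.31 for KLF10, -0.54 to 0.02 for KLF4 and -0.10 to 0.24 for KLF13. For KLF10 the interaction was 0.00 with DESeq2 size factors, 0.12 with library size only, 0.02 without the filter, 0.00 with DESeq2 and -0.20 to 0.14 leaving out single libraries.

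Genes called with teriflunomide were 1002, and 265 by library size only, 1800 without the filter, 415 with the replicate block, 1796 with DESeq2, 2757 with both left out, 283 with only the groups compared and 216 to 1555 leaving out each. The combination against lurbinectedin gave 0, then 612 without the filter, 558 with DESeq2, 3640 with both left out, 94 with only the groups compared and 0 to 259 leaving out each, the 259 without combination library 2. The interaction gave 43, then 6 by library size only, 195 without the filter, 8 with the block, 226 with DESeq2, 1839 with both left out and 2 to 616 leaving out each. Library size only moved the share of calls that were higher from 50.2% to 39.2% with lurbinectedin and from 49.8% to 41% with the combination. Libraries of the same number in different groups did not deviate together (r -0.402 to 0.144 over 18 pairs), so the numbers were not taken as pairing. Where an alternative moved a value the cause was not tested. KLF4, with 6 control counts, is limited by depth.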
